A study of Mus musculus with 14 samples.

Results

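The adipocyte is the fate that mesenchymal precursors can take in place of the osteoblast, and 8 genes of that lineage were followed here in an osteoblast line. They are the transcription factor genes Pparg, Cebpa, Cebpb, Cebpd and Zfp423 and the lipid-handling genes Plin2, Fabp4 and Lpl. They were taken by symbol, all 8 were present in both deposited tables, and the count table holds 24346 genes in all. The cells were MC3T3-E1, a mouse line of osteoblast precursors, and all 14 libraries were made from their polyadenylated RNA. The labels give 2 conditions, control and MACF1 knockdown, each at days 0, 3, 5 and 10. Each group had 2 libraries, except on day 10, which had a single library for either condition (1 per group). MACF1 is a cytoskeletal crosslinker of actin and microtubules, and the series' title concerns its part in osteoblast differentiation through Wnt signalling. No hairpin, vector, clone or culture medium is named in the sources used here, nor the event from which days were counted. The design text calls the pairs biological replicates but does not say whether they were separate cultures, so the p-values rest on differences between libraries that could be technical only.

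Adipocyte differentiation is a relay of transcription factors. C/EBPβ and C/EBPδ, the products of Cebpb and Cebpd, are induced early, and they activate Pparg and Cebpa, whose products PPARγ and C/EBPα then sustain each other's expression and switch on the genes of the fat cell. Zfp423, a zinc finger protein, marks committed preadipocytes, and PPARγ is known for turning mesenchymal precursors of bone marrow away from the osteoblast fate. C/EBPβ and C/EBPδ also act in osteoblasts, on the gene of osteocalcin. Fabp4 encodes the fatty acid carrier of fat cells, Lpl the lipase that frees fatty acids from circulating lipoproteins, and Plin2 a coat protein of lipid droplets that many cell types make.

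Before the members are described, the check of the labels and 1 library need stating. Macf1 itself showed no fall that passed in the libraries labelled knockdown, so that wording is used throughout. It held 154.3 to 204.6 CPM (counts scaled to library size by the trimmed mean of M values) in 6 control libraries, 55.2 CPM in control day 3 replicate 2, and 129.4 to 181.2 CPM in the 7 labelled knockdown, the lowest of them at day 10 against 195.6 CPM in control. Its level averaged over days 0, 3 and 5 had a log2 fold change of 0.13 between conditions (SE 0.24; adjusted p = 0.724 by the edgeR quasi-likelihood test). Total counts ran from 8044687 to 23301514 per library. The lowest belonged to control day 3 replicate 2, where ribosomal protein genes took 17.8% of counts against 5.29% to 10.4% elsewhere. Its log2 values correlated with its replicate's at 0.924, against 0.987 to 0.989 in the other pairs. All libraries share 1 estimate of the spread, so a member's result is also given without it wherever its call changes. The defining markers of mature fat cells were at or near 0, with Adipoq, Cfd, Retn and Adrb3 at 0 to 2 counts in every library. The summed level of 10 osteoblast markers ran from 14809 to 32371 CPM in control, against 13410 to 25305 CPM under the knockdown label.

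The promoters of 3 members are shown because Cebpa and Plin2 were the members that passed the test between conditions and Cebpb was the most abundant. Each is the 250 bases before the RefSeq transcript start, 5′ to 3′ on the gene's strand in GRCm38.p6, and capitals mark every match to the motifs searched. The windows lie at chr7:35119043-35119292 (+ strand) for Cebpa, chr4:86670060-86670309 (− strand) for Plin2 and chr2:167688665-167688914 (+ strand) for Cebpb.
Cebpa: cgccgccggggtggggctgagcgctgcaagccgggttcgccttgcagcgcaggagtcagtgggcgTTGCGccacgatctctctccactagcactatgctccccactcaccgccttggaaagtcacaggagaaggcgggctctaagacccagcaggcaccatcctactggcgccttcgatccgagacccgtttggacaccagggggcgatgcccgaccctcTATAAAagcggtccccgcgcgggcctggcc
Plin2: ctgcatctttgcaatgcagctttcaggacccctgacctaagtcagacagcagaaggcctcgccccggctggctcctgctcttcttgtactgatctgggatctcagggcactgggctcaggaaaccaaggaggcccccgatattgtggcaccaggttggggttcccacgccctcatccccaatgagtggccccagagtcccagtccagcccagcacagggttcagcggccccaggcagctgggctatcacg
Cebpb: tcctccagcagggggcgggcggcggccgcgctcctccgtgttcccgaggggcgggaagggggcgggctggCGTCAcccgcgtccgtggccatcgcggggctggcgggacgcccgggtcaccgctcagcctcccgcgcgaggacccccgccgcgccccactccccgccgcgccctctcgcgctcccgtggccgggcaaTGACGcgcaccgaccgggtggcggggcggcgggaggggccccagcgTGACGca
The motifs, searched on both strands, were the C/EBP half-site TTGCG, the cyclic AMP response half-site TGACG, the TATA box TATAAA, the E-box CACGTG and the direct repeat element of PPAR with its RXR partner. In Cebpa, a C/EBP half-site lay 185 to 181 bases before the start and a TATA box 30 to 25 bases before it. In Cebpb, half-sites of the cyclic AMP element lay 53 to 49 and 7 to 3 bases before the start, and 1 on the other strand at 180 to 176 bases. The Plin2 window held none of these letters, which says nothing of the factors. Among 32851 promoter windows of that length, 14.5% held the C/EBP half-site, 17.8% the cyclic AMP half-site, 12.4% the TATA box, 6.02% the E-box and 0.0335% the PPAR element. Windows were matched for 5 of the 8 members.

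Between genes, levels were compared in the deposited RPKM (reads per kilobase of gene, scaled to library size) and the members fell into an abundant set and a set near the limit of counting. Cebpb was the highest, with a mean of 70.6 RPKM ± 21.6 (SD, n = 14 libraries), and it was above Cebpd in 14 of 14 libraries. Cebpd followed at 20.5 RPKM ± 8.62 (SD, n = 14) and Plin2 at 14.6 RPKM ± 5.38 (SD, n = 14). Cebpd was above Plin2 in 12 of 14 libraries, a difference smaller than their spread. Zfp423 averaged 5.51 RPKM ± 1.95 (SD, n = 14) and Cebpa 1.81 RPKM ± 0.919 (SD, n = 14), and Plin2, Zfp423 and Cebpa stood in that order in 14 of 14 libraries. Fabp4, Pparg and Lpl averaged 0.139, 0.136 and 0.0643 RPKM, and these neighbours did not differ beyond their spread. The early factors of the relay were read in quantity, and the later ones ran from low, for Cebpa, to a handful of reads, for Pparg. The order of Cebpd and Plin2 depends on gene length. The deposited values imply 1272 bases for Cebpd and 2035 for Plin2, against 3746 and 3512 bases of exon in the GENCODE annotation, and with those lengths Plin2 ranks above Cebpd.

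**Figure D1:**
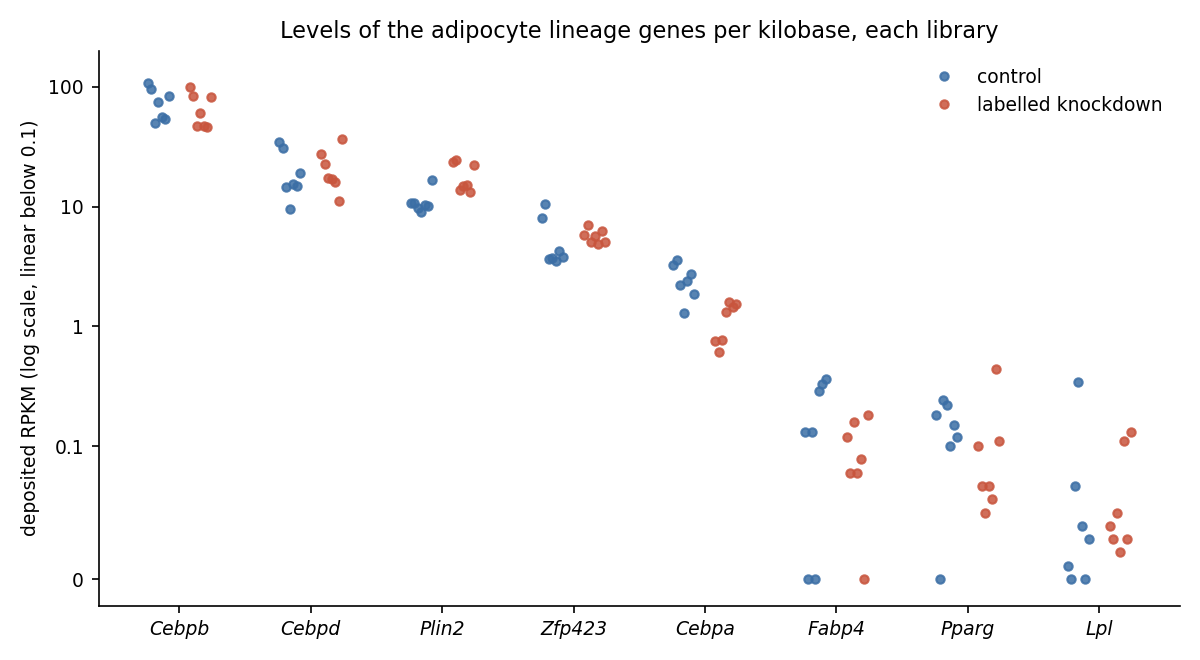
Deposited RPKM of each gene (y axis, log scale, linear below 0.1) in each of the 14 libraries (points), with genes ordered by their mean. Cebpb sits highest at a mean of 70.6 RPKM, and Fabp4, Pparg and Lpl lie below 1 RPKM in every library.

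Pparg (ENSMUSG00000000440, GRCm38 chromosome 6, 115360951 to 115490399, + strand), the master regulator of the fat cell, was barely read. Control libraries held 6 and 0 counts on day 0, 8 and 4 on day 3, 4 and 4 on day 5, and 5 on day 10. The knockdown-labelled libraries held 4 and 2, 2 and 2, 3 and 14, and 4 counts. The conditions summed to 31 counts each, and the 14 counts came from 1 library whose replicate held 3. Pparg did not pass the filter on low counts, at least 10 counts in at least 2 libraries, and has no test. The limit that a count of 0 allows, 3 counts, corresponds to 0.129 to 0.373 CPM depending on the library, for counting error only, so changes of Pparg near that level were not detectable at this depth.

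Fabp4 (chromosome 3, 10204088 to 10208576, − strand), a target of PPARγ in fat cells, also failed the filter. Control libraries held 2 and 0 counts on day 0, 2 and 0 on day 3, 5 and 4 on day 5, and 7 on day 10. Under the knockdown label the values were 2 and 1, 3 and 1, 2 and 0, and 3 counts. The sums were 20 and 12 counts, and every library of either condition held 7 or fewer.

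Lpl (chromosome 8, 68880491 to 68907448, + strand) passed the filter through 3 libraries only. Control libraries held 1 and 0 counts on day 0, 5 and 13 on day 3, 3 and 0 on day 5, and 3 on day 10. The knockdown-labelled libraries held 3 and 2, 4 and 1, 12 and 2, and 10 counts. The 13 counts were those of control day 3 replicate 2, the library that stands apart. Lpl passed in none of the comparisons across days or conditions, and at these counts no fold change is given. It passed at day 3 once control day 3 replicate 1 was left out, which leaves the library with 13 counts as the only control of that day (adjusted p = 0.0102).

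Cebpa (ENSMUSG00000034957, chromosome 7, 35119293 to 35121928, + strand) was lower in the libraries labelled knockdown, most clearly at day 0. Control libraries held 9.29 and 9.94 CPM on day 0, 6.24 and 4.55 on day 3, 6.81 and 7.63 on day 5, and 5.38 on day 10. Libraries labelled knockdown held 2.06 and 1.67 CPM on day 0, 2.12 and 3.46 on day 3, 4.50 and 4.03 on day 5, and 4.47 on day 10. Both libraries labelled knockdown lay below both controls at each of days 0, 3 and 5, as they did for 9.55% of all genes tested, and the gap was widest at day 0. In bulk RNA, fewer cells of a type and less RNA per cell cannot be told apart. Averaged over these days, Cebpa fell by 1.36 log2 units (SE 0.17, adjusted p = 0.000284 by the edgeR quasi-likelihood test), a 2.57-fold lower level. In that comparison 26.9% of all genes passed, 11.9% in the lower direction. At day 0 it was 5.11-fold lower (log2 fold change −2.35, SE 0.29, adjusted p = 0.000993), where 7.09% of genes passed, 2.68% as lower. The calls for the average and for day 0 were made in every one of the 22 and 21 alternatives run. At day 3 the difference was −0.99 (adjusted p = 0.0529) and at day 5 it was −0.75 (adjusted p = 0.139), and neither passed. Without control day 3 replicate 2, they were −1.19 (adjusted p = 0.0147) and −0.76 (adjusted p = 0.0272), with many more of all genes passing (31.5% at day 5). Leaving out replicate 1 of that group made the day 5 call (adjusted p = 0.029) but not that of day 3 (−0.73, adjusted p = 0.0953). A transcript antisense to Cebpa, Gm45091, overlaps its exon in the annotation. The strand setting of the counting is not given, so reads of such partners could not be told apart.

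**Figure D2:**
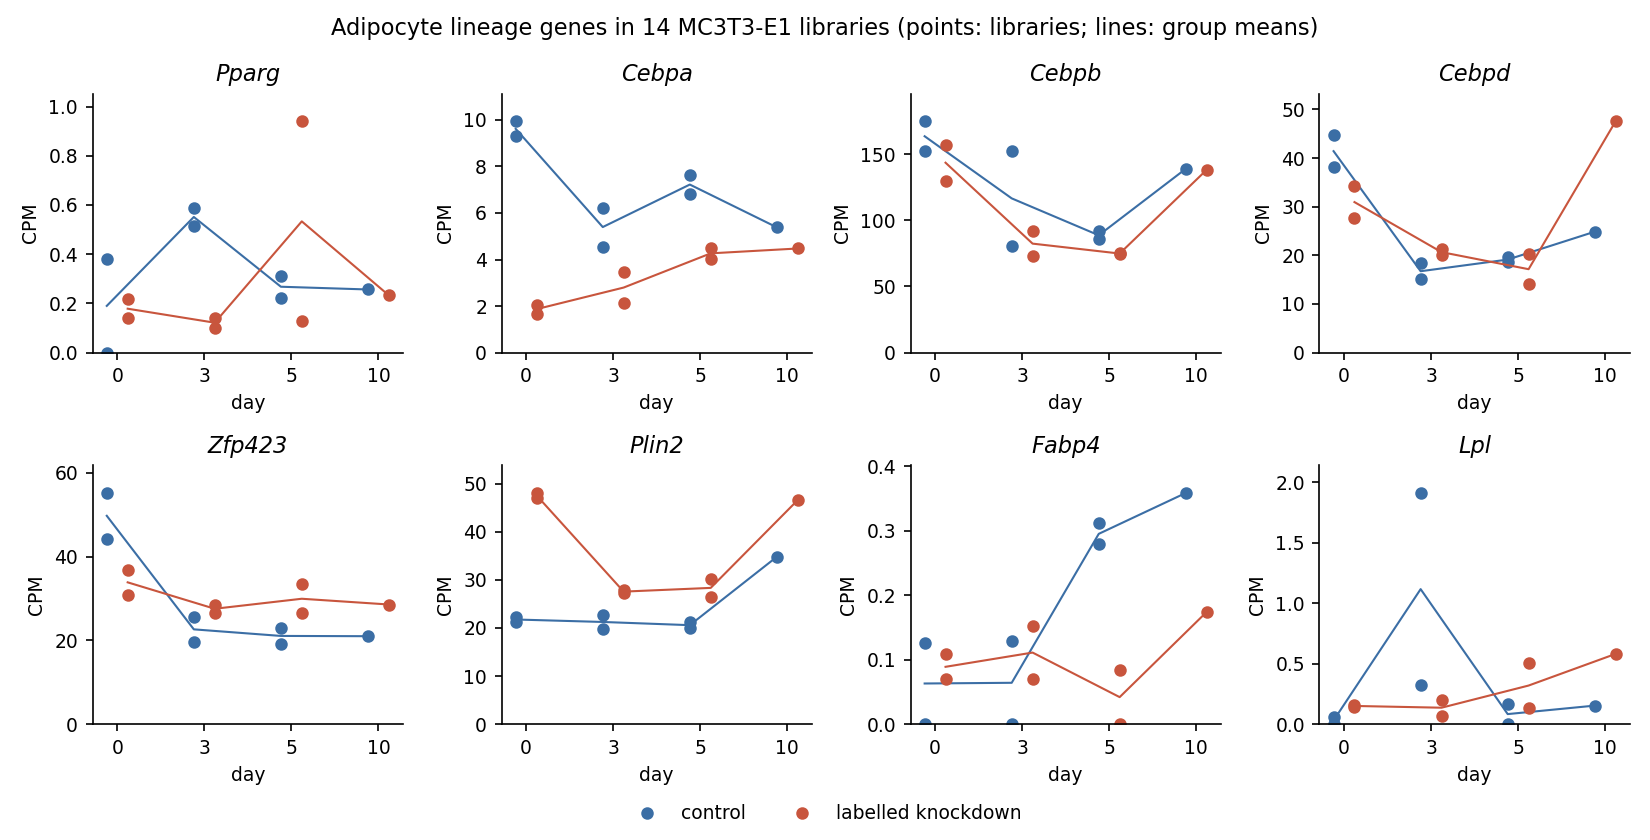
CPM of each gene (y axis, linear and starting at 0) by day (x axis, evenly spaced), with 1 point per library and lines through the group means, for control and for libraries labelled knockdown. Cebpa of the libraries labelled knockdown lies below control and Plin2 above it at days 0, 3 and 5, while Pparg and Fabp4 stay under 1 CPM.

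Plin2 (chromosome 4, 86648386 to 86670060, − strand), the lipid droplet coat protein, moved the other way and was higher in the libraries labelled knockdown. Control libraries held 22.2 and 21.3 CPM on day 0, 19.7 and 22.8 on day 3, 21.2 and 20.02 on day 5, and 34.8 on day 10. The libraries with the knockdown label held 47.0 and 48.1 CPM, 27.2 and 27.9, 30.3 and 26.4, and 46.6. The conditions did not overlap at days 0, 3 and 5, as was the case in this direction for 13.7% of all genes, and the control values of those days lay close together. Averaged over the days, Plin2 rose by 0.66 log2 units (SE 0.092, adjusted p = 0.000681), a 1.58-fold higher level, and 15.0% of all genes passed in that direction. At day 0 the rise was 2.18-fold (log2 fold change 1.13, SE 0.16, adjusted p = 0.00209), where 4.41% of genes passed as higher. Both calls were made in all alternatives run. At day 3 the log2 fold change was 0.38 (adjusted p = 0.139) and at day 5 it was 0.46 (adjusted p = 0.118). Without control day 3 replicate 2 both passed, at 0.48 and 0.45, where more of all genes passed than with all libraries kept. Leaving out replicate 1 of that group gave adjusted p of 0.128 and 0.0075. Macrophages also make Plin2. The 8 measured macrophage markers summed to 2.10 to 6.61 CPM in control, against 3.96 to 11.4 CPM under the knockdown label. Lyz2 alone held 1.56 to 4.26 and 3.27 to 9.60 CPM and rose (adjusted p = 0.00303). Of the others, Ptprc held 0 to 2 counts and Adgre1 and Fcgr1 0 to 1. Cd68 held 1 to 10, Itgam 0 to 10, Csf1r 0 to 7 and Mrc1 0 to 14 counts. Their part in the Plin2 values was not tested.

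Zfp423 (chromosome 8, 87661810 to 87959595, − strand) lay on different sides of control at different days. Control libraries held 44.3 and 55.2 CPM on day 0, 19.7 and 25.6 on day 3, 19.3 and 22.9 on day 5, and 21.02 on day 10. Libraries labelled knockdown held 31.0 and 36.8 CPM, 26.6 and 28.5, 26.5 and 33.4, and 28.6. Their mean lay below that of control at day 0 and above it at days 3 and 5. The log2 fold changes were −0.56 at day 0 (adjusted p = 0.166), 0.29 at day 3 (adjusted p = 0.367) and 0.51 at day 5 (adjusted p = 0.202), and the average was 0.08 (adjusted p = 0.66). None of these passed. At day 0 the adjusted p was 0.0394 in the fit with a replicate block, 0.0179 without control day 3 replicate 2 and 0.0177 without control day 3 replicate 1. At day 5 Zfp423 also passed with either of those libraries left out, at log2 fold changes of 0.50 (without replicate 2) and 0.51. More of all genes passed at both days without replicate 2 than with all libraries kept.

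Cebpb (chromosome 2, 167688915 to 167690418, + strand), the early activator and the most abundant member, gave no difference between conditions that passed. Control libraries held 174.8 and 152.1 CPM on day 0, 80.6 and 152.4 on day 3, 91.7 and 85.5 on day 5, and 138.9 on day 10. The libraries with the knockdown label held 157.2 and 129.7 CPM, 73.1 and 91.5, 75.3 and 74.3, and 138.1. The groups overlapped at days 0 and 3. The average difference was −0.31 log2 units (adjusted p = 0.173; 95% interval −0.66 to 0.04). Control day 3 replicate 2, at 152.4 CPM, decided this value: without it the average was −0.14 (adjusted p = 0.179) and the difference at day 3 went from −0.50 to 0.03. With replicate 1 left out in its place, they were −0.44 (adjusted p = 0.000533) and −0.89 (adjusted p = 0.000424). Tmem189, on the opposite strand, overlaps an exon of Cebpb but held 0 to 2 counts.

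Cebpd (chromosome 16, 15887286 to 15891031, + strand), the partner of Cebpb in the early step, gave no difference between conditions that passed. Control libraries held 44.7 and 38.1 CPM on day 0, 18.3 and 15.1 on day 3, 19.7 and 18.5 on day 5, and 24.9 on day 10. Under the knockdown label the values were 34.2 and 27.7 CPM, 21.2 and 20.1, 20.2 and 14.1, and 47.6. Their mean lay below that of control at day 0 and above it at day 3, and the conditions overlapped at day 5. The average difference was −0.09 log2 units (adjusted p = 0.623; 95% interval −0.37 to 0.19), and at day 0 it was −0.42 (adjusted p = 0.322). The count table calls Cebpd a pseudogene and the annotation a protein-coding gene. Spidr, on the opposite strand, overlaps its exons and held 93 to 834 counts, so its values are uncertain.

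**Figure D3:**
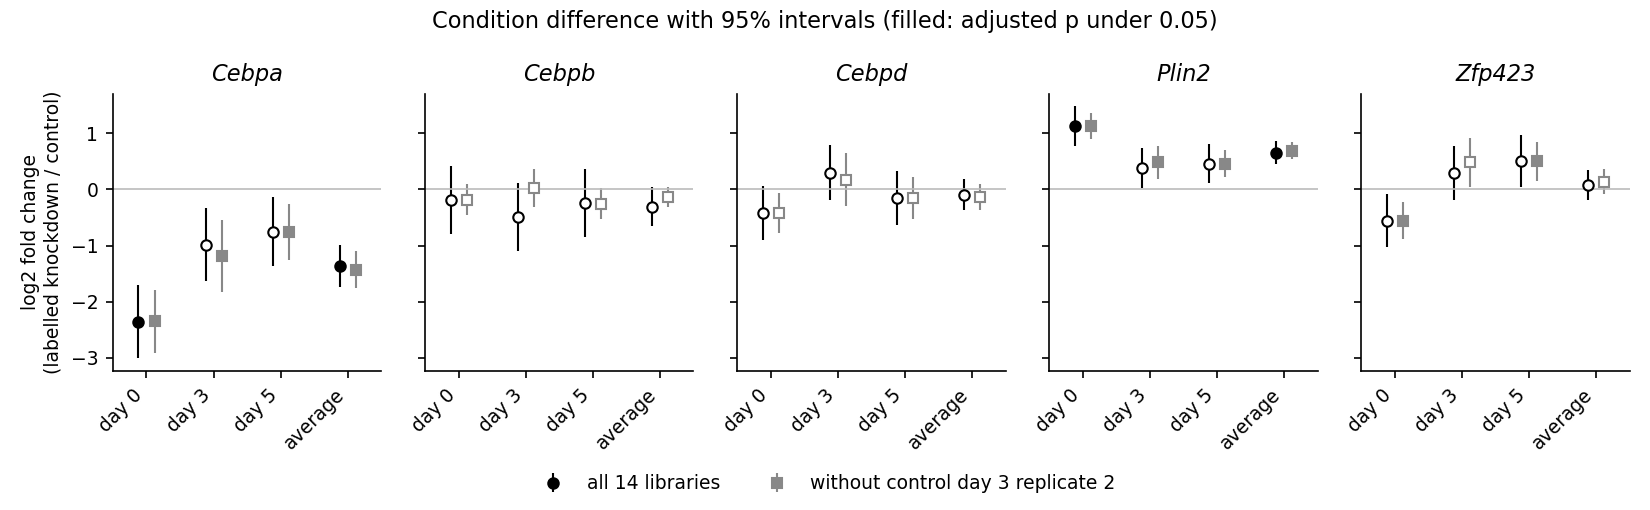
Log2 fold change of the libraries labelled knockdown over control (y axis) at days 0, 3 and 5 and averaged over them for 5 genes, with 95% intervals. Circles use all 14 libraries, squares leave out control day 3 replicate 2, and filled symbols passed an adjusted p of 0.05. Cebpa lies below 0 and Plin2 above 0 throughout, with the largest distance at day 0.

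Of the 6 members tested, 2 passed for the average over days, 1 in each direction, and 4 did not, where 26.9% of all genes passed. At day 0 also 2 passed, where 7.09% of all genes did. At day 3 and at day 5, 0 of 6 passed by the edgeR test. Of all genes, 12.6% passed at day 3 (7.06% higher, 5.52% lower) and 7.78% at day 5 (5.32% higher, 2.47% lower). DESeq2 called 1 member at day 3, Cebpa as lower (adjusted p = 0.0218), and 0 at day 5. Limma on the RPKM values called 1 at day 3, a different member and as higher, and 0 at day 5. The shares of all genes above are those of the edgeR test.

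The course from day 0 to day 5 was asked of each condition in turn. In control, Zfp423 fell by 1.24 log2 units (SE 0.21, adjusted p = 0.0061), a 2.36-fold lower level at day 5, and Cebpd fell by 1.11 (SE 0.22, adjusted p = 0.0116), a 2.17-fold lower level. Here 8.13% of all genes passed, 4.32% as higher and 3.82% as lower. Both controls of day 5 lay below both of day 0 for either gene, and the controls of day 3, at 19.7 and 25.6 CPM for Zfp423 and 18.3 and 15.1 CPM for Cebpd, were already near the values of day 5. Cebpb had a log2 change of −0.88 (adjusted p = 0.0819). It passed without control day 3 replicate 1 (−0.88), and without replicate 2 (−0.87), where more of all genes passed than with all libraries kept. With all libraries of both groups kept, it also passed by DESeq2 (adjusted p = 0.0271), in the fit to the compared groups alone (adjusted p = 0.000436), with no filter (adjusted p = 0.0191) and in either limma fit (adjusted p = 0.045 and 0.0468), 7 of 21 alternatives in all. Cebpa, at −0.41 (adjusted p = 0.433), and Plin2, at −0.08 (adjusted p = 0.844), did not pass. The call of Cebpd was lost without any single library of control day 0 or day 5, at adjusted p of 0.0502 to 0.108. That of Zfp423 was lost when control day 0 replicate 2 or control day 5 replicate 1 was left out, at adjusted p of 0.0722 and 0.0841.

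In the libraries labelled knockdown, Plin2 fell from day 0 to day 5 by 0.75 log2 units (SE 0.16, adjusted p = 0.0448), a 1.68-fold lower level, where 2.00% of all genes passed, 1.45% as higher and 0.548% as lower. The call was lost in 10 of the 12 fits that leave out 1 library, at adjusted p of 0.096 to 0.377, and made in those without either control of day 3. The other members did not pass: Cebpa had a log2 change of 1.19 (adjusted p = 0.0861), Cebpb −0.94 (adjusted p = 0.146), Cebpd −0.85 (adjusted p = 0.0917) and Zfp423 −0.18 (adjusted p = 0.868). Without control day 3 replicate 2, the calls of Cebpa, Cebpb and Cebpd changed, with many more of all genes passing, and they changed without replicate 1. The log2 changes barely moved, at 1.19, −0.94 and −0.84 without replicate 2. They were 1.18, −0.94 and −0.84 without replicate 1. Cebpd also passed in the fit with a replicate block (adjusted p = 0.0306).

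Whether the course differed between the conditions was tested directly, and 0 of 6 members passed by the edgeR test. The background was 1.36% of all genes, 0.800% as higher and 0.564% as lower. The change of Cebpa was 1.60 log2 units higher in the libraries labelled knockdown (SE 0.40, adjusted p = 0.114), from −0.41 in control to 1.19. The difference was 1.06 for Zfp423 (SE 0.30, adjusted p = 0.18) and −0.67 for Plin2 (SE 0.22, adjusted p = 0.311). In the fit with a replicate block, Zfp423 passed (adjusted p = 0.0352). Without control day 3 replicate 2, the adjusted p was 0.0125 for Cebpa, 0.0104 for Zfp423 and 0.016 for Plin2, against 10.1% of all genes passing. With replicate 1 left out in its place, the values were 0.0123, 0.00992 and 0.0171. DESeq2 called 1 member and limma 0. In the joint test over days 0, 3 and 5, 0 of 6 members passed against 0.998% of all genes, with 1 called by DESeq2 and 0 by limma. There, too, the calls of Cebpa, Plin2 and Zfp423 changed without control day 3 replicate 2, and without replicate 1 so did those of Cebpb and Lpl as well. Many more of all genes passed in either fit, which leaves 1 library in that group.

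At day 10 each condition had 1 library, so the values have no replicate check and no test. Cebpd was 1.91 times, Zfp423 1.36 times and Plin2 1.34 times as high in the library labelled knockdown as in control. Cebpb stood at 0.994 and Cebpa at 0.831 of the control level. None of these 5 reached a 2-fold difference, which 9.09% of all genes did as higher and 4.96% as lower.

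The rest of the adipocyte programme was followed in lists of other genes, here for the difference averaged over days 0, 3 and 5. Each median in CPM given below is over all 7 libraries of a condition, day 10 included. In that comparison 26.9% of all genes passed, 15.0% as higher and 11.9% as lower, which is the share to set each list's count against. Of 23 adipogenic regulators, 19 were tested: 5 rose, 2 fell and 12 did not pass, with a median log2 fold change of 0.20 against −0.0032 over all genes. Irs1, an insulin receptor substrate, fell, with medians of 149.9 CPM in control and 54.4 CPM under the knockdown label (log2 fold change −1.59, adjusted p = 9.8e-06), and Rxra, which pairs with PPARγ, fell by 0.38 (adjusted p = 0.0212). Klf4, which acts on Cebpb early in mouse adipocyte differentiation, rose by 0.68 (adjusted p = 0.00071), and Ncoa1, a nuclear receptor coactivator, by 0.58 (adjusted p = 0.00409). The other risers, named after their values were seen, were Stat5a (0.47, adjusted p = 0.0251), Nr3c1 (0.53, adjusted p = 0.0344) and Zfp467. Zfp467 had medians of 0.129 CPM in control and 1.47 CPM under the knockdown label (adjusted p = 0.000537). Of 20 genes that restrain adipogenesis, 18 were tested: 6 rose, 3 fell and 9 did not pass, with a median of 0.14. Nr2f2, the orphan receptor COUP-TFII, rose by 1.17 (adjusted p = 5.1e-05) and Trib2, which promotes the breakdown of C/EBPα, by 0.55 (adjusted p = 0.00322). Klf2, a repressor of Pparg, fell by 1.87 (adjusted p = 2.2e-05) and Hes1, a Notch target, by 1.42 (adjusted p = 0.00233). Neither list moved one way, and rises and falls stood on either side of 0. Without control day 3 replicate 2, 10 regulators and 14 restraining genes passed, against 47.1% of all genes.

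Of the other C/EBP genes, Cebpg and Cebpz were tested and 0 passed, at adjusted p of 0.287 and 0.147 and a median of −0.05. Among the other PPARs and their RXR partners, 3 were tested and 1 fell, Rxra, which is also counted among the regulators, with a median of −0.22. That is 1 of the 5 relatives tested, against 26.9% of all genes.

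Among lipid droplet and lipolysis genes other than Plin2, 10 of 18 were tested: 4 rose, 1 fell and 5 did not pass, with a median of 0.49, against 15.0% of all genes as higher and 11.9% as lower. Pnpla2, the lipase that starts the breakdown of stored triglyceride, rose by 0.74 (adjusted p = 0.000985) and Cav1, a caveolar coat protein, by 0.82 (adjusted p = 0.0402). Bscl2, the seipin of droplet assembly, fell by 1.30 (adjusted p = 0.000477). The other risers, named after their values were seen since their mean was under 5 CPM, were Plin4, a perilipin (adjusted p = 0.000677), and Lipe, the hormone-sensitive lipase (0.97, adjusted p = 0.0115). Plin4 had medians of 0.614 CPM in control and 1.01 CPM under the knockdown label. Of 20 genes for fatty acid uptake and triglyceride assembly, 15 were tested and 1 rose, 2 fell and 12 did not pass, with a median of −0.08, against the same shares of all genes. Fabp5, the fatty acid carrier closest to Fabp4 that is made outside fat, was read at 91.6 to 253.3 CPM and fell by 0.51 (adjusted p = 0.0441). The others, also named after their values were seen, were Slc27a1, a fatty acid transporter, which rose (medians of 1.03 and 3.83 CPM, adjusted p = 0.00115), and Vldlr, a lipoprotein receptor, which fell (0.556 and 0.202 CPM, adjusted p = 0.0118). Of 16 products of mature fat cells, 10 had a row and only Nampt and Agt passed the filter, with 0 called at adjusted p of 0.481 and 0.599 and a median of −0.16. With control day 3 replicate 2 left out, 7 droplet genes and 8 uptake and assembly genes passed, and Nampt passed as lower (log2 fold change −0.32, adjusted p = 0.00092), against 47.1% of all genes.

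Of 11 genes of adipocyte progenitors and marrow stroma, 9 were tested and 5 rose and 4 fell, with a median of 0.94, where 26.9% of all genes passed. Ly6a, which encodes the progenitor surface protein Sca-1, rose, with medians of 1.71 CPM in control and 8.70 CPM under the knockdown label (log2 fold change 1.97, adjusted p = 5.2e-05). Cd34, a surface protein of progenitors, rose by 1.42 (adjusted p = 4.5e-06) and Kitl, a stromal growth factor, by 2.06 (adjusted p = 0.00115). Pdgfrb, a growth factor receptor of mural cells and preadipocytes, fell by 0.43 (adjusted p = 0.00552). For comparison, 2 of 10 osteoblast markers rose, 4 fell and 4 did not pass, with a median of −0.28, and 8 passed without control day 3 replicate 2. The bone sialoprotein gene Ibsp had medians of 1163 CPM in control and 92.3 CPM under the knockdown label (log2 fold change −3.57, adjusted p = 1.2e-06), and alkaline phosphatase, Alpl, fell by 2.66 (adjusted p = 6.8e-07). Runx2, the osteoblast regulator, fell by 0.61 (adjusted p = 0.00208) and Sparc by 0.64 (adjusted p = 0.00185). The markers that rose, named after their values were seen, were Spp1, the osteopontin gene (0.60, adjusted p = 0.012), and Bglap, the osteocalcin gene. Bglap had medians of 0.441 CPM in control and 4.80 CPM under the knockdown label (adjusted p = 0.00873), and it is uncertain, since near-identical copies may share its reads.

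**Figure D4:**
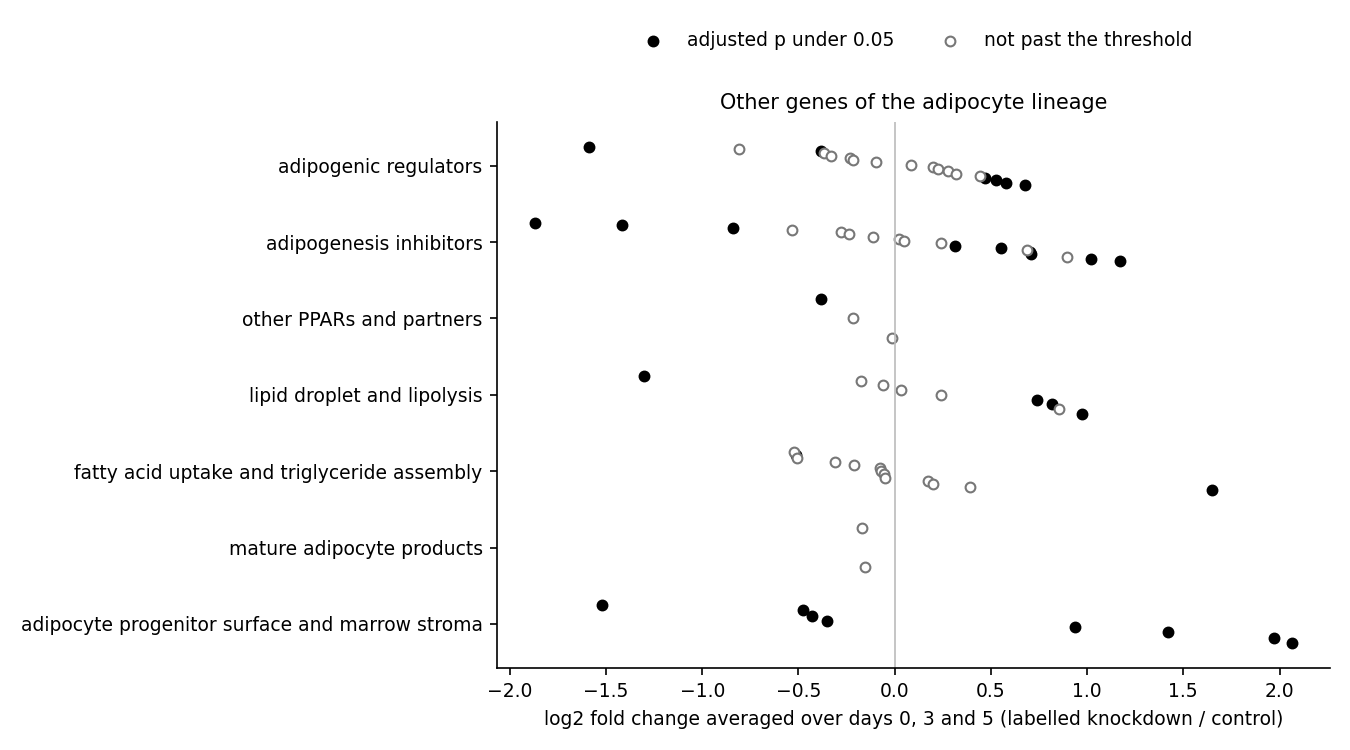
Log2 fold change averaged over days 0, 3 and 5 (x axis) of the tested genes in 7 lists (y axis), 1 point per gene, filled where the adjusted p was under 0.05. The 71 entries with counts in every library are drawn and 5 with a library at 0 are not; regulators and restraining genes lie on either side of 0.

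Markers of other cell types were low apart from Sox9 and Col2a1 of the cartilage genes. Summed levels of 7 endothelial markers were 0.771 to 2.51 CPM in control, against 1.20 to 3.49 CPM under the knockdown label, with 5 under 1 CPM throughout. Pecam1, named after its values were seen, had an adjusted p of 0.0553, and 0.00546 without control day 3 replicate 2. Of 7 muscle markers, 4 had a row, and their sum of 1.03 to 4.26 against 4.10 to 11.4 CPM was nearly all Des, which rose (log2 fold change 1.85, adjusted p = 0.00143). Chondrocyte markers summed to 147.7 to 369.5 and 216.5 to 343.7 CPM, and Col2a1 rose by 0.78 (adjusted p = 0.000276). Most of the sum was Sox9 and Col2a1, at means of 136.9 and 140.7 CPM. Acan held 0 to 2 counts, Matn1 0 to 3, Comp 3 to 23 and Col10a1 0 to 256. Their part in the members' values was not tested.

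The genes whose profile over the 14 libraries was most like a member's were found by the root mean square distance of log2 CPM, each profile centred on its own mean, among 9317 genes of at least 5 CPM. For Cebpa these were Prelp, a proteoglycan gene, at 0.267 and Ppp1r3b at 0.322, where Cebpa varied around its own mean by 0.744. For Plin2 they were Ppp3ca, a calcineurin subunit, at 0.114 and Hmga2, a chromatin protein, at 0.155, against 0.448. Zfp423 was nearest Anxa6 at 0.133 and Zyx at 0.165, against 0.417. For Cebpb they were Itga2b at 0.180 and Agpat2, an enzyme of triglyceride assembly, at 0.207, against 0.452. For Cebpd they were Aebp1 at 0.258 and Vim at 0.275, against 0.538. Lpl, at its few counts, gave Mir99ahg at 0.401 and Il11ra1 at 0.505. Pparg and Fabp4, which failed the filter, were not ranked. Over the 8 group means in place of the libraries, Ppp1r3b held rank 3, Zyx 4, Hmga2 6, Agpat2 10 and Vim 11 for their members. The other named genes stayed at rank 1 or 2.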

How the data were processed

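Polyadenylated RNA of 14 MC3T3-E1 libraries was treated with DNase and made into directional libraries, per the labels' protocols. The submitters' processing notes name bcl2fastq, TopHat2, edgeR and GRCm38. No source used here gives their versions, the counter with its strand setting, or the authors' annotation. Counts deposited by the authors are unnormalized reads for 24346 genes. The authors also deposited RPKM for 24340 genes, used here for levels between genes and for an alternative test. Identifiers were matched to GENCODE release M21 of GRCm38 (24181 matched), and promoters come from RefSeq.

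A filter of 10 counts in 2 or more libraries kept 13130 genes and left out 11216. A single model with 8 group means covered the 14 libraries (edgeR 4.0.16 under R 4.3.3, TMM scaling, robust quasi-likelihood fits with 6 residual degrees of freedom). In each of 8 contrasts, Benjamini-Hochberg adjustment ran across every tested gene, with a threshold of 0.05. A 95% interval is that of the fit. Alternatives were median-ratio size factors, DESeq2 1.42.0, limma 3.58.1 on log2(RPKM + 1) or log2(RPKM + 0.1), which understates the change of low genes, other filters, a replicate block, fewer groups, and each replicate left out. Replicate pairs differed by more than sampling noise (chi-square per degree of freedom 13.5 to 187.4), so none was merged. Same-numbered libraries of the conditions deviated together (correlations 0.234, 0.141 and 0.228 at days 0, 3 and 5), and so did those of different days (0.0393 to 0.320); the pairing comes from the numbers in the titles. The 8 members are named in every library, with up to 4 called genes per list of at least 5 CPM by smallest adjusted p and the 2 nearest profiles per member. The members and lists were chosen with earlier results of these data known.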

Additional observations from a re-analysis of the deposited data

Results flagged for a closer look

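The change of Cebpa from day 0 to day 5 was larger in the libraries labelled knockdown than in control by 1.60 on the log2 scale, since both libraries of one condition moved up and both of the other down. By the edgeR test of this difference it did not pass (adjusted p = 0.114). The condition difference of Zfp423 moved from below 0 at day 0 to above 0 at day 5, a shift of 1.06 (adjusted p = 0.18). From day 0 to day 3 the shift was 0.846 for Zfp423 and 0.717 for Cebpd. This step was tested only within the joint test of days 0, 3 and 5, at adjusted p of 0.312 for Zfp423 and 0.613 for Cebpd. Without control day 3 replicate 2 the call of Zfp423 in the joint test changed and that of Cebpd did not, with many more of all genes passing.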

How the results depend on the processing

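The counts below are of the 6 members tested that passed. The share of all genes that passed also changed between these fits. It is not given for each fit, so a changed count cannot be read as a result about the members. The replicate block gave 2 members lower at day 0, 2 lower from day 0 to day 5 in the libraries labelled knockdown and 1 higher in the difference between the courses, and it changed no other call. Fits to the compared groups alone gave 3 lower at day 0, 2 higher and 1 lower at day 5, 1 higher and 3 lower in the knockdown-labelled course, and 2 higher and 1 lower in the difference between courses. At day 3, 1 was lower with median-ratio size factors, a filter of 50 counts, without day 10 or with DESeq2, and 1 higher with either limma fit. DESeq2 also gave 1 higher and 3 lower in the knockdown-labelled course, 1 higher in the difference and 1 in the joint test, and no filter gave 1 higher in that course. In the control course, DESeq2, both limma fits, no filter and the compared groups alone gave 3 lower, against 2. The causes were not tested. Leaving out each replicate gave 1 to 2 lower and 1 to 1 higher for the average, 1 to 2 lower at day 0, 0 to 2 lower and 0 to 1 higher at day 3, 0 to 1 lower and 0 to 2 higher at day 5, 0 to 3 lower in the control course, 0 to 3 lower and 0 to 1 higher in the knockdown-labelled course, 0 to 2 higher and 0 to 1 lower in the difference, and 0 to 5 in the joint test. Values that changed sign were all from differences that did not pass. Zfp423 averaged −0.024 without day 3. Over the replicates left out, Cebpb at day 3 ran from −0.89 to 0.026, the latter without control day 3 replicate 2, and Cebpd at day 5 from −0.44 to 0.079, the latter without knockdown day 5 replicate 2. In the difference between courses Cebpb ran from −0.19 to 0.090, above 0 without control day 0 replicate 2, control day 5 replicate 1 or knockdown day 0 replicate 1, and Cebpd from −0.019, without knockdown day 5 replicate 1, to 0.50. Where a group keeps 1 library, that library is assumed to vary like the others. Over all genes, the calls for the average ranged from 2392 to 7593 around 3530, the last without control day 3 replicate 1. Depth limits Pparg, Fabp4 and Lpl, which held 14 counts or fewer in every library.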
